A study of Mus musculus with 2 samples.

Results

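The genes described here encode 18 enzymes of sterol synthesis, 4 regulators of that pathway and 10 enzymes that make, desaturate or lengthen fatty acids. They are 32 of the 31053 genes listed for the control library. The rule took them by symbol and uses no measured value, but they were chosen with earlier results of these data known. RNA was measured in single epithelial cells of the lung, sorted by flow cytometry from mouse embryos at embryonic day 15, with 1 library of control genotype and 1 library in which the LEF/TCF transcription factors were knocked out (titled QKO). LEF/TCF factors carry Wnt signals to target genes, and the study asked what the 4 family members do in lung epithelial progenitors. The control library gave the values below, and knockout expression was not analysed here. The strain, the Cre driver, the alleles that the controls carry and the number of embryos pooled are not given in the sources used here.

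Each captured RNA molecule carried a unique molecular identifier (UMI), so a level is a number of UMIs, given as CPM, a gene's UMIs scaled to the UMI total of the same cells. There were 3568 barcodes, one per droplet called as a cell, for the control and 5342 for the knockout, and 29 occurred in both. After removal of 111 barcodes, 3457 control cells held 53639813 UMIs, with a median of 12826 per cell. The 32 genes summed to 51390 UMIs, from 152 for Scd1 to 8166 for Scd2, and all 32 passed the minimum of 50. With 1 library there was no replicate spread and no test. Each interval in brackets is a 95% interval. For levels and ratios it covers counting error only, and for shares of cells it is a binomial interval over the cells of this library. Cells are not replicates.

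Cholesterol is built from acetyl-CoA in a long chain of steps. The mevalonate enzymes make isoprenoid units, these are joined into squalene, squalene is closed into lanosterol, and the late enzymes trim lanosterol to cholesterol. The transcription factors SREBP-1 and SREBP-2, encoded by Srebf1 and Srebf2, sit in the endoplasmic reticulum membrane with their escort Scap. When sterols are scarce they travel to the Golgi, are cut, and switch on sterol and fatty acid genes, and Insig1 holds them back when sterols are plentiful. Alveolar type 2 cells of the lung use fatty acids to build surfactant phospholipid, and fatty acid synthesis in the lung increases toward birth.

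Cells were grouped by 1 or more UMIs of a class gene. Sftpa1, a surfactant protein gene of type 2 cells, was seen in 836 cells. Ager, a gene of type 1 cells, was seen in 1525. Sox9, a factor of the distal tips, was seen in 2172 and Sox2, a factor of the airways, in 697. The classes overlapped, and 718 of the 836 Sftpa1-positive cells were also Sox9-positive. Of the positive cells, 53.7% for Sftpa1, 50.7% for Ager, 32.4% for Sox9 and 41.6% for Sox2 rested on 1 UMI. Among 57 cells with at least 3 UMIs of mesenchymal markers, 3 were Sftpa1-positive, 9 Ager-positive, 11 Sox9-positive and 12 Sox2-positive, at a median of 8966 UMIs per cell. These shares were 5.26%, 15.8%, 19.3% and 21.1%, against 24.2%, 44.1%, 62.8% and 20.2% of all kept cells. Whether these UMIs came from the cells themselves was not tested. For comparisons, disjoint classes were used that excluded the other gene of the pair.

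The markers upheld some of these classes and not others. Sox2-only cells held 353 CPM of the airway gene Scgb3a2, against 5.47 CPM in Sox9-only cells, and Sox9-only cells held 1727 CPM of Sftpc, a distal gene, against 113 CPM in Sox2-only cells. Sox2-only cells also held 19.9 CPM of Dcn, a mesenchymal gene. Sftpb lay at 74.1 CPM in Sftpa1-only cells and at 19.1 CPM in Ager-only cells. The type 1 markers were mixed: Hopx lay at 3.50 and 3.96 CPM, Pdpn at 56.9 and 41.5 CPM, Akap5 at 28.0 and 30.4 CPM, Cav1 at 0.999 and 2.11 CPM (6 and 39 UMIs), and Aqp5 at 0 and 0.0542 CPM, Sftpa1-only cells first. The Ager class is called Ager-only, and not type 1.

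The sterol and fatty acid genes had close levels in the 4 classes. Scd2, a stearoyl-CoA desaturase, lay at 151 CPM in Sftpa1-positive, 159 in Ager-positive, 154 in Sox9-positive and 170 in Sox2-positive cells. Fdps, which makes farnesyl diphosphate, lay at 85.0, 90.3, 84.0 and 78.9 CPM in the same order. Idi1, an isomerase of isoprenoid units, lay at 67.5, 70.4, 65.7 and 63.3 CPM. Fasn, fatty acid synthase, lay at 24.3, 24.5, 24.3 and 25.9 CPM, and Srebf1 at 11.5, 10.6, 10.7 and 10.1 CPM. For these genes the order of the classes was not the same, and Sox2-positive cells were highest for Scd2 and Fasn and lowest for Fdps, Idi1 and Srebf1. The 4 classes share cells.

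**Figure D1:**
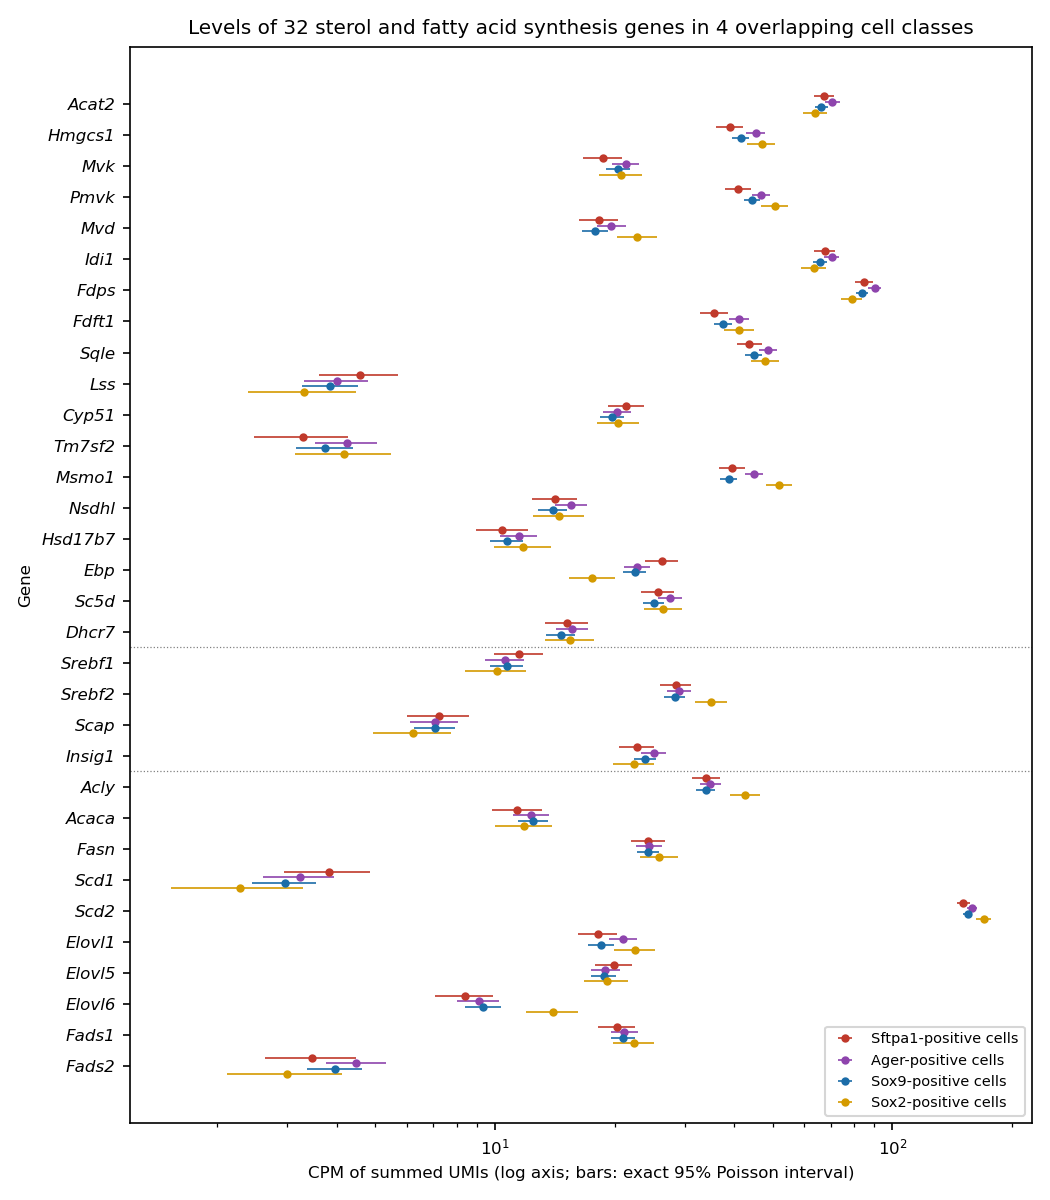
CPM of the 32 genes (log axis) in Sftpa1-positive, Ager-positive, Sox9-positive and Sox2-positive cells, with exact Poisson intervals, and dotted lines between sterol enzymes, regulators and fatty acid enzymes. For most genes the 4 points lie close together, while Msmo1, Ebp, Elovl6, Acly and Srebf2 have a Sox2-positive point that lies apart.

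Sox2-positive cells were the class that stood apart for several genes. Elovl6, which lengthens palmitate, lay at 14.0 CPM in Sox2-positive cells and between 8.39 and 9.33 CPM in the other 3 classes. Msmo1, the sterol 4-methyl oxidase, lay at 51.9 CPM in Sox2-positive cells, 44.9 in Ager-positive, 39.5 in Sftpa1-positive and 38.7 in Sox9-positive cells. Ebp, the sterol isomerase, ran the other way, at 17.6 CPM in Sox2-positive cells and between 22.5 and 26.3 CPM elsewhere. Acly, which makes cytosolic acetyl-CoA, lay at 42.6 CPM in Sox2-positive cells and between 33.9 and 34.8 CPM elsewhere. Of the regulators, Srebf2 lay at 35.0 CPM in Sox2-positive cells and between 28.3 and 29.0 CPM elsewhere.

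Promoter sequences are shown for 6 sterol enzymes: 5 of the 10 that were past 1.5-fold between single cells in a comparison given further on, each with 1 entry in the promoter table, and Mvk, mevalonate kinase, which was not past it. Acat2, also past 1.5-fold and with 1 entry, is not shown, and its entry held a GC box and no CCAAT box. The sequences come from RefSeq (build GRCm38.p6), read 5′ to 3′ along the gene, with the matches to 4 motifs in capitals. The motifs were the SREBP site TCACNCCAC, the E-box CACGTG, the CCAAT box and the GC box GGGCGG, each searched on both strands, so that GTGGNGTGA, ATTGG and CCGCCC count as matches. For Nsdhl and Mvk the 120 bases directly before the RefSeq start are printed. For Hmgcs1 the 120 bases printed run from 170 to 51 bases before the start, chosen to hold its SREBP site, and its 4 CCAAT boxes, which begin 237, 176 and 45 bases before and 10 after the start, lie outside them. For Msmo1, Cyp51 and Idi1 only 29 bases around a CCAAT box are printed, because the longest GENCODE model starts upstream of them.
Hmgcs1, chr13:119690181-119690300, plus strand: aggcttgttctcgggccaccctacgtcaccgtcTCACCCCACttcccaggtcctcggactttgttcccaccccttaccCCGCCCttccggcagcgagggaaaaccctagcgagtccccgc
Nsdhl, chrX:72918401-72918520, plus strand: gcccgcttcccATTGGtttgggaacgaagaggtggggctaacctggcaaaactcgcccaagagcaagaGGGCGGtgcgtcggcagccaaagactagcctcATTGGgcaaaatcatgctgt
Mvk, chr5:114444149-114444268, plus strand: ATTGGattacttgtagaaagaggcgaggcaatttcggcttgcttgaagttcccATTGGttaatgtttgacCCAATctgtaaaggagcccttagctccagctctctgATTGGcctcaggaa
Msmo1, chr8:64733617-64733645, minus strand: gagtgGGGCGGaCCAATtacgacaggcga
Cyp51, chr5:4104710-4104738, minus strand: cgctgtccgccaCCAATctggtcctgaga
Idi1, chr13:8885549-8885577, plus strand: tgcctccagctgATTGGcgagcccgggca

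Of the 32 genes, 26 had an entry in the promoter table, each covering 250 bases before and 50 after the start, and 15 of these were sterol enzymes. For a gene with more than 1 entry the first one listed was counted, and the shares over all promoters count every entry. The exact SREBP site was found in 1 of the 26, Hmgcs1, whose match TCACCCCAC begins 137 bases before the start. It occurs in 1.24% of all 32851 promoters in the table. A CCAAT box was found in 13 of 15 sterol enzymes (86.7%) and in 37.4% of all promoters, or 38.2% of those of 21262 protein-coding entries. With any entry of a gene counted it was 14 of 15, since other entries of Dhcr7 hold one. A GC box was found in 14 of 15 sterol enzymes (93.3%) and in 35.7% of all promoters, or 46.2% of protein-coding entries. Among the 7 fatty acid enzymes with an entry, 4 held a CCAAT box and 3 a GC box. Of the 4 regulators 3 held a CCAAT box and 3 a GC box, or 4 a GC box with any entry counted. The E-box lay in 2 regulators, Scap and Insig1, in 2 of the 15 sterol enzymes (3 with any entry counted), in 1 of the 7 fatty acid enzymes, and in 7.15% of all promoters or 7.84% of protein-coding entries. These are matches of letters and not sites at which binding was measured.

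Between Sox9-only cells (1887 cells, median 14149 UMIs) and Sox2-only cells (412 cells, median 9824.5 UMIs), most of the sterol and fatty acid genes differed by small ratios, and 6 of them by more. A gene was called different at a ratio of at least 1.5 or at most the inverse, among genes with 50 or more UMIs over both classes. That held for these 6 of the 32 genes, and for 24.6% of the 11142 genes tested, 7.31% higher and 17.3% lower in Sox9-only cells. Higher in Sox9-only cells were Ebp, Scd1 and Lss, and lower were Elovl6, Msmo1 and Mvd. The median ratio over the 32 genes was 0.951, against 0.917 over all genes tested.

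The late sterol enzymes went in both directions. Ebp lay at 23.0 CPM in Sox9-only cells and 13.4 CPM in Sox2-only cells, a ratio of 1.72 [1.34 to 2.26]. Msmo1 lay at 36.4 and 58.6 CPM, a ratio of 0.62 [0.55 to 0.71]. Lss, the cyclase that forms lanosterol, had 122 and 12 UMIs, and its ratio of 1.56 has an interval that holds 1 [0.86 to 3.11] and turned to 0.902 with classes called after thinning. Mvd, the last mevalonate step, lay at 17.4 and 27.8 CPM, a ratio of 0.63 [0.52 to 0.76]. Ebp was thus higher, and Msmo1 and Mvd lower, in Sox9-only cells.

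A further 4 sterol enzymes had smaller ratios whose intervals lay below 1. These were Pmvk, phosphomevalonate kinase, at 0.77 [0.67 to 0.88], Fdft1, squalene synthase, at 0.81 [0.70 to 0.94], Hmgcs1, which makes HMG-CoA, at 0.83 [0.72 to 0.95] and Sqle, squalene epoxidase, at 0.84 [0.74 to 0.96]. For Acat2, Mvk, Idi1, Fdps, Cyp51, Tm7sf2, Nsdhl, Hsd17b7, Sc5d and Dhcr7 the interval held 1. For all 4 regulators it held 1 as well, and Srebf2 lay at 0.84 [0.71 to 1.01]. Without cells that held Mki67 or Top2a UMIs, which mark cycling cells, Hmgcs1 lay at 1.15, Fdft1 at 1.05, Sqle at 1.02 and Srebf2 at 1.06. Insig1 lay at 1.66, Idi1 at 1.55 and Fdps at 1.38 there, against 1.10, 1.10 and 1.07 over all cells of the pair. Mvd and Msmo1 stayed below 1, at 0.71 and 0.84. In cells of at most 14000 UMIs Fdps lay at 0.82.

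The elongases and desaturases also differed among themselves. Elovl6 lay at 8.57 CPM in Sox9-only cells and 16.5 CPM in Sox2-only cells, a ratio of 0.52 [0.40 to 0.68]. Elovl1, which lengthens very long chains, had a ratio of 0.70 [0.57 to 0.85], and Acly 0.78 [0.67 to 0.92]. Scd1 had 94 UMIs in Sox9-only cells and 6 in Sox2-only cells, a ratio of 2.41 with a wide interval [1.07 to 6.73]. Its close copy Scd2 had 149 and 158 CPM, a ratio of 0.94 [0.87 to 1.02], and reads shared by these 2 genes could have been split between them. Fasn, Acaca (acetyl-CoA carboxylase), Elovl5, Fads1 and Fads2 had intervals that held 1.

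Ebp and Elovl6 kept their direction in 11 of 11 alternative settings, with ratios from 1.44 to 2.05 and from 0.27 to 0.53. Msmo1 ran from 0.53 to 0.84, with an interval below 1 in 8 of the 10 settings that gave one. The 0.84, which is not past 1.5-fold, came without cells that held Mki67 or Top2a UMIs. In GENCODE M21 (GRCm38) Ebp lies at chrX:8185329-8193512 on the minus strand, Elovl6 at chr3:129532355-129638495 on the plus strand and Msmo1 at chr8:64718139-64733792 on the minus strand, each a protein-coding gene. Depth and the mesenchymal list (20.98 CPM in Sox2-only against 3.003 CPM in Sox9-only cells, most of it Dcn in Sox2-only cells) moved with this pair of classes. The settings included cells of at most 14000 UMIs, thinned cells, and removal of cells with other-lineage markers. Beyond these settings, the part of depth and of the mesenchymal list in the ratios was not tested.

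**Figure D2:**
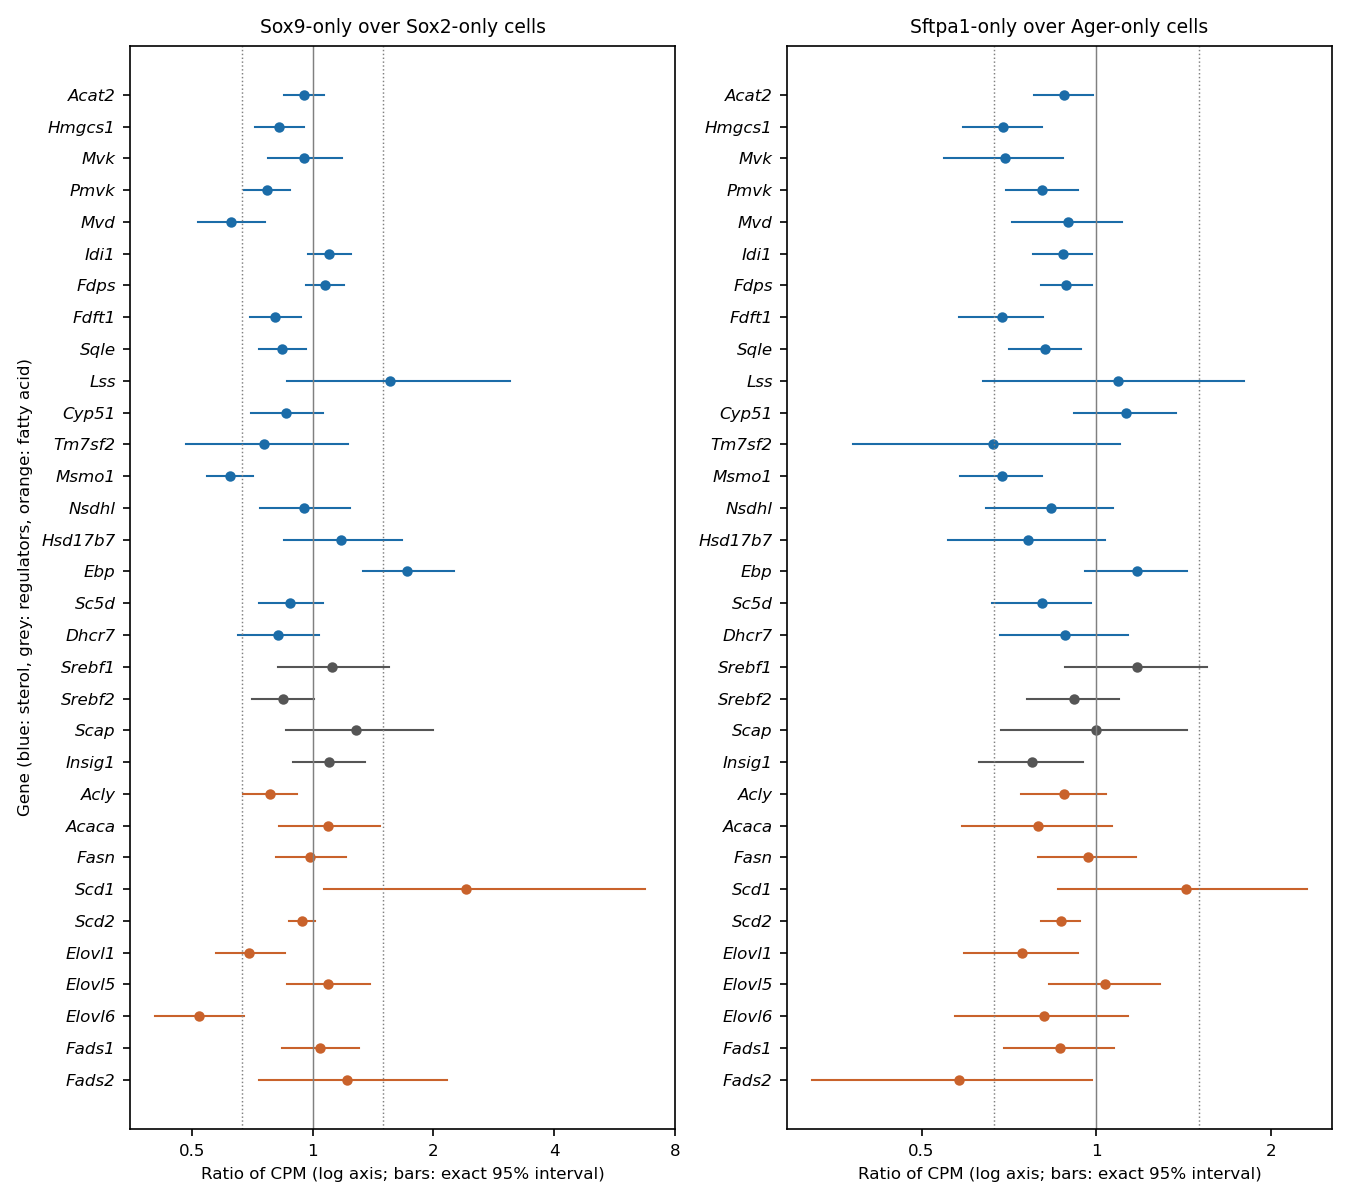
Ratio of CPM (log axis) with exact 95% intervals for the 32 genes in Sox9-only over Sox2-only cells (left) and Sftpa1-only over Ager-only cells (right); dotted lines mark 1.5-fold. On the left Elovl6, Msmo1 and Mvd lie below and Ebp, Scd1 and Lss above the dotted lines, while on the right most points lie between the lower dotted line and 1.

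Genes of related pathways gave the surroundings. Of 15 other SREBP pathway genes with enough UMIs, 1 was higher in Sox9-only cells, Tmem97, a sterol-regulated membrane protein, at 1.79 [1.501 to 2.16]. Acat1, the mitochondrial thiolase, and Aacs, acetoacetyl-CoA synthetase, were lower, at 0.57 [0.50 to 0.65] and 0.61 [0.39 to 0.98]. Among 7 sterol efflux genes, Npc1, which exports cholesterol from lysosomes, lay at 2.45 [1.83 to 3.35] and Soat1, which esterifies cholesterol, at 1.77 [1.32 to 2.44], while Lipa, the lysosomal lipase, lay at 0.56 [0.40 to 0.78] and Mylip, which degrades the LDL receptor, at 0.36 [0.19 to 0.68]. Mylip turned to 1.68 without cells holding Mki67 or Top2a UMIs. The fatty acid oxidation genes Acadm and Acadvl, of 11 tested, were lower at 0.57 [0.49 to 0.66] and 0.52 [0.42 to 0.66]. In phospholipid and triglyceride synthesis, Lpcat1 (1.56 [1.30 to 1.90]), Lpin2 (1.92 [1.37 to 2.76]) and Fabp5 (1.55 [1.47 to 1.65]) were higher and the lipid droplet protein Plin2 lower (0.64 [0.52 to 0.79]), of 14 tested.

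Between Sftpa1-only cells (388 cells, median 13312.5 UMIs) and Ager-only cells (1077 cells, median 14147 UMIs), the sterol enzymes lay lower in Sftpa1-only cells by small ratios. Of the 32 genes 2 were past 1.5-fold, Fads2 and Tm7sf2, both lower in Sftpa1-only cells. Over all 10504 genes tested 9.96% were past 1.5-fold, 2.43% higher and 7.53% lower in Sftpa1-only cells. The intervals of 14 of the 32 genes lay below 1 and none lay above 1. Over all genes tested, 1659 intervals lay below 1 and 924 above. The median ratio was 0.866 over the 32 genes and 0.955 over all genes tested. Related lists also lay low in part. The median was 0.872 over 11 fatty acid oxidation genes, all below 1, and 0.850 over 14 genes of phospholipid and triglyceride synthesis. It was 0.936 over 15 other SREBP pathway genes and 1.09 over 6 sterol efflux genes.

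Of the 18 sterol enzymes, 10 had intervals below 1. The lowest among them were Hmgcs1, at 32.5 CPM in Sftpa1-only and 47.0 CPM in Ager-only cells, a ratio of 0.69 [0.59 to 0.81], Fdft1 at 29.0 and 42.2 CPM, 0.69 [0.58 to 0.81], Msmo1 at 31.1 and 45.3 CPM, 0.69 [0.58 to 0.81], and Mvk at 15.2 and 21.8 CPM, 0.70 [0.55 to 0.87]. Pmvk, Sc5d (a sterol desaturase), Sqle, Idi1, Acat2 (cytosolic thiolase) and Fdps had ratios between 0.81 and 0.89. Ebp and Cyp51, the lanosterol demethylase, had ratios of 1.17 [0.96 to 1.43] and 1.12 [0.92 to 1.37]. Tm7sf2, a sterol reductase, had 19 and 88 UMIs, and its ratio of 0.66 has an interval that holds 1 [0.38 to 1.10].

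Among regulators only Insig1 had an interval without 1, at 19.8 CPM in Sftpa1-only and 25.6 CPM in Ager-only cells, a ratio of 0.77 [0.63 to 0.95]. Srebf1 lay at 1.18 [0.88 to 1.55], Srebf2 at 0.91 [0.76 to 1.10] and Scap at 0.999 [0.69 to 1.43]. Among fatty acid enzymes Fads2, the delta-6 desaturase, had 17 and 90 UMIs, a ratio of 0.58 [0.32 to 0.98], Elovl1 lay at 0.75 [0.59 to 0.93] and Scd2 at 0.87 [0.80 to 0.94]. Fasn lay at 23.5 and 24.3 CPM, a ratio of 0.97 [0.79 to 1.17]. Scd1 lay at 1.43 [0.86 to 2.31].

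The count of genes past 1.5-fold in this pair was not stable. It was 8 without cells that held Mki67 or Top2a UMIs and 1 when classes were called after thinning, and Fads2 and Tm7sf2 then lay at 1.17 each. The share of all genes past 1.5-fold at these settings is not given here. Markers moved as well: the 5 pan-epithelial markers summed to 1547 CPM in Sftpa1-only and 1884 CPM in Ager-only cells, and the 6 airway markers to 21.98 and 71.2 CPM, and their part was not tested. Outside the 32 genes, Abca3, the lamellar body transporter, lay at 2.46 [1.77 to 3.42] and Soat1 at 1.56 [1.24 to 1.96], and Plin2 at 0.53 [0.41 to 0.69] and Pcyt1a, which makes CDP-choline for phosphatidylcholine, at 0.61 [0.45 to 0.82].

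Within Sox9-positive cells that lacked Sox2 and Ager, those with Sftpa1 (295 cells) and without it (648 cells) had nearly the same levels. Of the 32 genes 28 had enough UMIs, and 1 of these was past 1.5-fold, against 4.43% of 9147 genes, 1.97% higher and 2.46% lower with Sftpa1. It was Mvk, at 13.7 CPM with and 21.2 CPM without Sftpa1, a ratio of 0.64 [0.48 to 0.86]. Insig1 lay at 0.74 [0.57 to 0.95] and Mvd at 1.38 [1.03 to 1.84], and Msmo1 at 1.01 [0.82 to 1.23] and Idi1 at 1.04 [0.89 to 1.203]. Of the 28 genes, 25 had an interval that held 1. The median ratio was 0.991 over the 28 and 1.02 over all genes tested. Lss, Tm7sf2, Scd1 and Fads2 were under the minimum, and Scd1 had 23 and 18 UMIs, a ratio of 2.31 [1.19 to 4.55]. Of the related genes Acadvl, a fatty acid oxidation enzyme, was past 1.5-fold at 1.62 [1.12 to 2.33], and lay at 0.859 with classes called after thinning.

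Between single cells the picture differed. Cells that held many UMIs of some sterol enzymes also held more of the others. Each cell was thinned at random to 5000 UMIs, which left out 92 of the 3457 cells. For each sterol enzyme, cells in the upper quartile of the summed UMIs of the other 17 enzymes were compared with cells in the lower quartile, so that no gene entered its own score. Of 17 enzymes with enough UMIs, 10 were at least 1.5-fold higher in high cells and none was lower by that much. Among 8877 genes outside the score, compared between the 1040 cells high and 1057 cells low in all 18 enzymes, 8.05% were past 1.5-fold, 6.38% higher and 1.68% lower. The median ratio was 1.75 over the 17 enzymes and 1.06 over those genes.

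The highest ratios were those of Msmo1, Nsdhl and Cyp51, which act on lanosterol and its products. Msmo1 had 325 UMIs, or 69.8 CPM, in 931 high cells and 101 UMIs, or 17.9 CPM, in 1127 low cells, a ratio of 3.90 [3.11 to 4.92]. Nsdhl, which works with Msmo1 in removing the methyl groups, lay at 18.6 and 7.71 CPM, a ratio of 2.41 [1.66 to 3.56]. Cyp51 lay at 31.2 and 13.1 CPM, 2.38 [1.79 to 3.18], and Dhcr7, the last reductase, at 21.9 and 9.72 CPM, 2.25 [1.61 to 3.20]. At the squalene steps Sqle had a ratio of 2.35 [1.94 to 2.85] and Fdft1 2.28 [1.86 to 2.80].

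Of the early enzymes, Hmgcs1 lay at 57.8 CPM in high and 25.5 CPM in low cells, a ratio of 2.27 [1.85 to 2.80]. Idi1 lay at 94.5 and 45.5 CPM, 2.07 [1.77 to 2.43], Fdps at 107 and 61.2 CPM, 1.75 [1.54 to 1.98], and Acat2 at 83.0 and 51.1 CPM, 1.62 [1.39 to 1.90]. The 3 enzymes of the middle mevalonate steps had smaller ratios: Mvd 1.38 [1.05 to 1.83], Pmvk 1.17 [0.98 to 1.40] and Mvk 1.17 [0.87 to 1.57]. Among late enzymes Sc5d lay at 1.33 [1.04 to 1.71], Hsd17b7 at 1.24 [0.81 to 1.90], Ebp at 1.12 [0.84 to 1.49] and Tm7sf2 at 0.96 [0.53 to 1.75]. Lss, with 30 and 13 UMIs, was under the minimum, and its ratio was 2.38 [1.205 to 4.97].

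Motifs were counted for the enzymes on both sides of 1.5-fold. Of the 7 enzymes past 1.5-fold with a promoter entry, 5 held a CCAAT box in the first entry, 6 in any entry, and all 7 a GC box. Of the 7 not past 1.5-fold, all 7 held a CCAAT box and 6 a GC box. Mvk, printed above with 4 CCAAT boxes, was among the latter, and Msmo1, with a GC box directly before a CCAAT box, among the former.

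**Figure D3:**
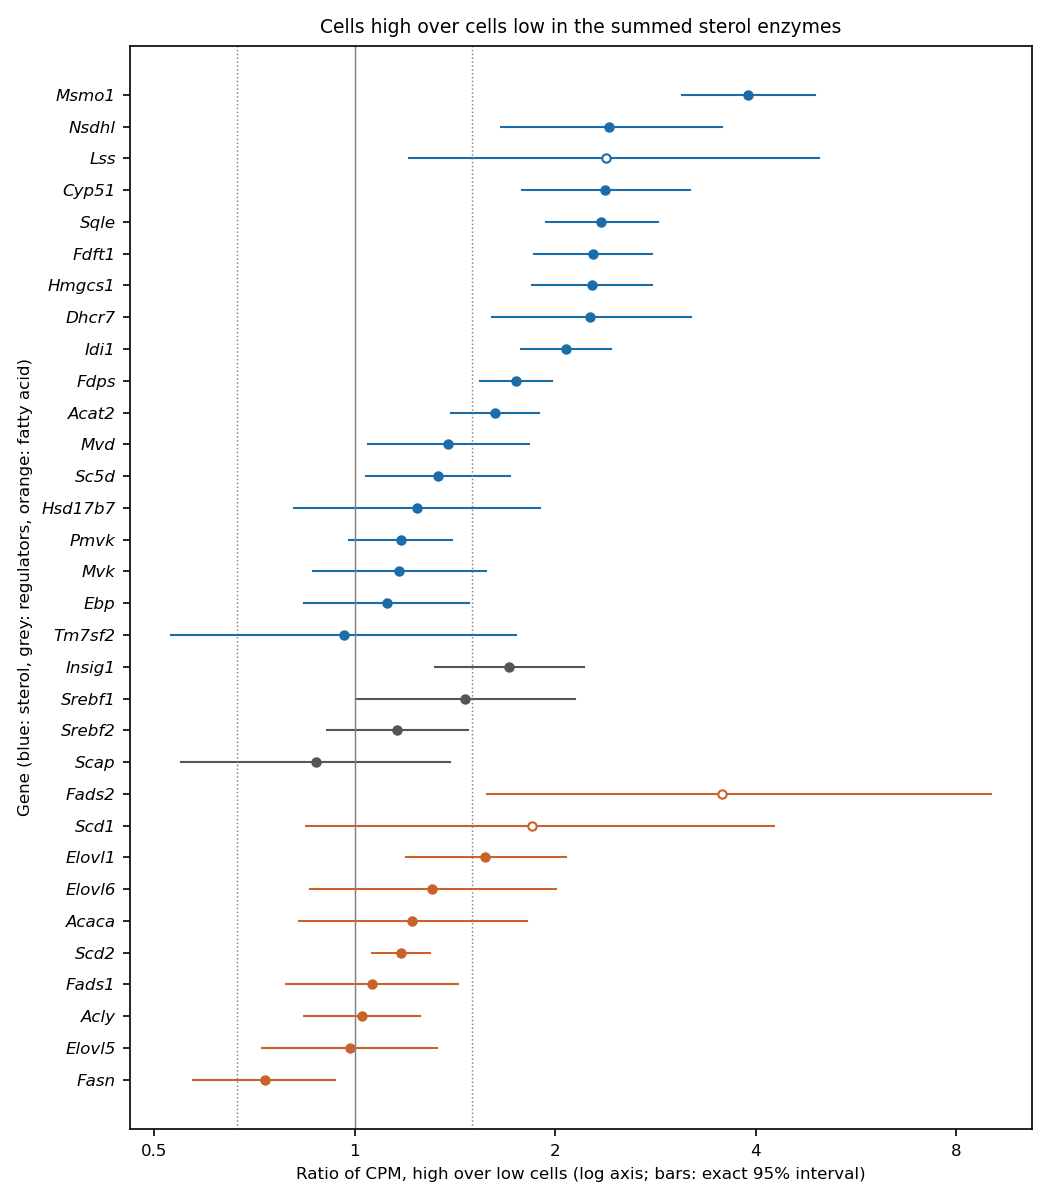
Ratio of CPM in cells high over cells low in summed sterol enzymes (log axis, exact 95% intervals), for sterol enzymes, regulators and fatty acid enzymes; open circles mark genes under 50 UMIs, and each sterol enzyme is left out of its own score. Msmo1 lies highest among genes with enough UMIs at 3.90, most sterol enzymes lie above 1.5, and the fatty acid enzymes with enough UMIs lie between 0.73 and 1.57.

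The regulators and fatty acid enzymes followed less. Insig1, itself an SREBP target, lay at 31.9 CPM in high and 18.7 CPM in low cells, a ratio of 1.70 [1.32 to 2.21]. Srebf1 lay at 1.46 [1.01 to 2.14], Srebf2 at 1.16 [0.91 to 1.48] and Scap at 0.87 [0.55 to 1.39]. Of the 8 fatty acid enzymes with enough UMIs, 1 was past 1.5-fold, Elovl1 at 1.57 [1.19 to 2.08]. Its gene overlaps Cdc20 on the opposite strand by 53 bases, and whether counting used strand is not given in the sources used here, so reads of Cdc20 could have entered it. Cdc20 was the gene outside the lists with the highest ratio, 2.77 [2.36 to 3.27].

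Scd2 lay at 159 and 135 CPM, a ratio of 1.17 [1.06 to 1.30], Acly at 39.0 and 38.0 CPM, 1.03 [0.84 to 1.254], and Fads1, the delta-5 desaturase, at 1.06 [0.79 to 1.43]. Fasn was the gene that ran the other way, at 22.3 CPM in high and 30.5 CPM in low cells, a ratio of 0.73 [0.57 to 0.94], but with another random thinning its ratio was 1.15. Fads2 had 28 and 8 UMIs, under the minimum, and a ratio of 3.56 [1.58 to 9.03]. It ranged from 0.91 to 8.64 over the alternatives.

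SREBP pathway genes that took no part in the score gave a further reading. Tmem97 lay at 52.1 CPM in high and 33.9 CPM in low cells, a ratio of 1.54 [1.27 to 1.87], and Acat1 at 43.5 and 28.9 CPM, 1.501 [1.22 to 1.86]. Of 11 fatty acid oxidation genes, 4 were past 1.5-fold: Cpt2 (1.73 [1.08 to 2.81]), Acadm (1.71 [1.35 to 2.17]), Hadhb (1.68 [1.39 to 2.04]) and Acadvl (1.59 [1.12 to 2.27]). In phospholipid and triglyceride synthesis Pcyt2 (1.82 [1.32 to 2.53]), Dgat1 (1.74 [1.16 to 2.62]), Cept1 (1.61 [1.29 to 2.01]) and Plin2 (1.51 [1.13 to 2.01]) were higher and Abca3 lower (0.51 [0.31 to 0.82]), of 13 tested. Within Sox2-only cells Abca3 lay at 1.66, Acat1 at 0.877 and Cpt2 at 0.555, against the direction over all cells. None of the 6 sterol efflux genes tested had an interval without 1.

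After Cdc20, the genes outside all lists with the highest ratios were Elf3, Ccnb1, Depdc1a, Plrg1, Pdia5, Ces1d, Idh1, Coq3 and Sgpp1, from 2.64 [1.71 to 4.17] for the epithelial factor Elf3 to 2.19 [1.43 to 3.41] for Sgpp1. Ccnb1, cyclin B1, lay at 2.49 [2.18 to 2.86]. Idh1, which makes cytosolic NADPH, lay at 2.30 [1.89 to 2.80].

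Other measures moved with the score. Before thinning, high cells had a median of 14120.5 UMIs and low cells 11458, and mitochondrial UMIs had medians of 2.50% and 2.93%. Ribosomal protein genes (Rpl and Rps) made up a mean of 31.1% of UMIs in high and 35.6% in low cells, and their part was not tested. The 5 cycling markers summed to 969 CPM in high and 784 CPM in low cells, the 5 pan-epithelial markers to 1988 and 1417 CPM, and the 5 mesenchymal markers to 18.5 and 24.98 CPM. Cells with both Xist and Y-linked UMIs, which mark droplets with cells of both sexes, made up 8.08% of high and 6.62% of low cells. The 6 distal markers summed to 2624 and 2632 CPM, the 6 type 2 markers to 69.4 and 73.6 CPM, the 6 type 1 markers to 140 and 111 CPM and the 6 airway markers to 138 and 115 CPM. These sums hide differences within a list. Of the distal markers Sftpc had a ratio of 1.13 [1.09 to 1.17]. Sox9 had 0.87 [0.78 to 0.97], Id2 0.86 [0.82 to 0.89] and Etv5 0.90 [0.82 to 0.98], and the intervals of Etv4 and Mia held 1. Epcam lay at 1.63 and Nkx2-1 at 0.94 in the pan-epithelial list, and Ube2c at 1.37 and Top2a at 0.93 in the cycling list. Ptprc, Cdh5 and Kdr were at 0 UMIs in both groups. The blood and immune markers summed to 5 UMIs in high and 649 in low cells, of which Pf4 gave 2 and 645. An alternative left out cells with other-lineage markers, Pf4 among them, and the enzymes past 1.5-fold lay above 1 there. Beyond that, the part of these Pf4 UMIs in the ratios was not tested. With cells of at most 14000 UMIs, 11 sterol enzymes and 13.5% of the genes outside the score were past 1.5-fold. Without cells holding Mki67 or Top2a UMIs it was 10 and 13.0%, and without cells holding Xist and Y-linked UMIs 10 and 8.90%.

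The relation was also present inside each of the 3 classes in which it was computed. Within Sox9-only cells 11 of 16 sterol enzymes with enough UMIs were past 1.5-fold, against 11.2% of the genes outside the score. Within Ager-only cells it was 11 of 15 against 8.39%, and within Sox2-only cells 7 of 8 against 13.1%. All 10 enzymes past 1.5-fold lay above 1 in 11 of 11 alternatives, which reuse the same cells. Not all stayed past 1.5-fold: thinned to 3000 UMIs, Acat2 lay at 1.31 and Hmgcs1 and Dhcr7 at 1.35 each. Msmo1 ranged from 2.21 to 4.55, Idi1 from 1.57 to 2.89 and Sqle from 1.53 to 2.51. Ratios of the sparser genes moved with the random thinning, and with another seed 13 enzymes were past 1.5-fold. The share of other genes at that seed is not given here.

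The summed sterol UMIs spread more widely over cells than counting alone would give. At 5000 UMIs per cell the 18 enzymes summed to a mean of 2.83 UMIs, from 0 to 22, and 375 cells had none. The variance was 1.86 times the mean, where independent counting gives 1. The same ratio was 1.19 for the 10 fatty acid enzymes, with a mean of 1.45 UMIs, and 1.32 for fatty acid oxidation genes, with a mean of 2.49. The means differ and the ratios were not adjusted for them, so their sizes are not directly comparable. High cells, those with 4 or more UMIs, made up 35.6% [32.7 to 38.6] of Ager-only, 35.6% [30.8 to 40.6] of Sox2-only, 29.7% [27.7 to 31.8] of Sox9-only and 26.5% [22.2 to 31.2] of Sftpa1-only cells, with exact binomial intervals. Each class thus held both high cells and cells with none, the latter 9.25% to 14.0% of its cells. The highest sum was 11 in Sftpa1-only, 21 in Ager-only, 13 in Sox9-only and 15 in Sox2-only cells. A score is a range and not a cell type, and cells near a limit can fall on either side.

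**Figure D4:**
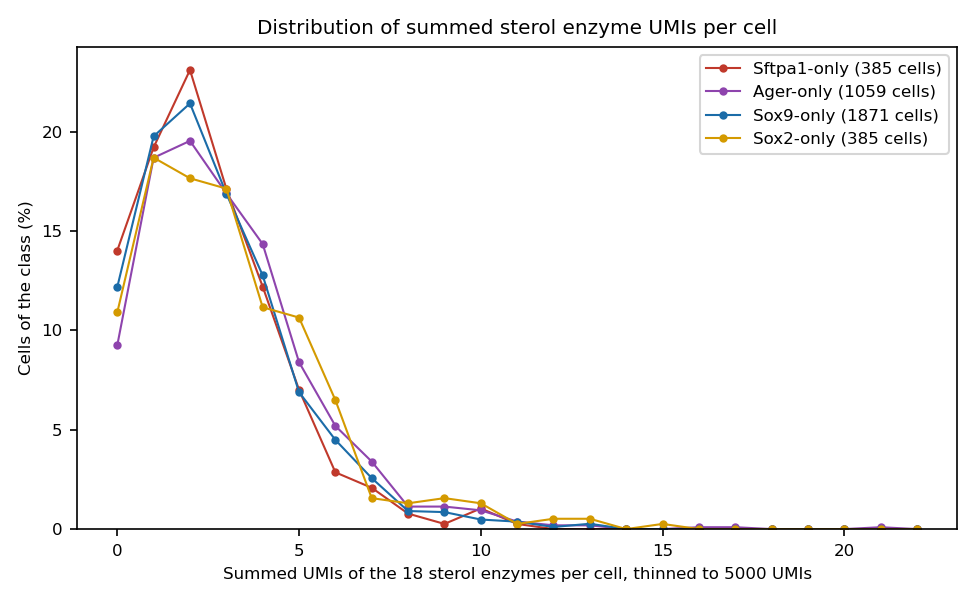
Share of cells (%) by summed UMIs of the 18 sterol enzymes at 5000 UMIs per cell, in the 4 classes Sftpa1-only, Ager-only, Sox9-only and Sox2-only (cells of one pair can also be in the other). All 4 curves have their highest point at 1 or 2 UMIs and a tail beyond 10, which in Sftpa1-only cells is 1 cell at 11 UMIs.

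Pairs of genes showed which enzymes were found together. The 510 cells with a UMI of Msmo1 at 5000 UMIs per cell were compared with the 2855 cells without. Of the 17 other sterol enzymes 10 had an interval above 1, and the median ratio was 1.62. Of the 9949 other genes with 50 or more UMIs, 8.90% had an interval above 1, and their median ratio was 1.03. The highest were Cyp51 at 2.10 [1.64 to 2.67], Nsdhl at 2.09 [1.52 to 2.85], Dhcr7 at 2.01 [1.51 to 2.65] and Hmgcs1 at 2.003 [1.68 to 2.38]. Insig1 lay at 2.14 [1.72 to 2.65], while Fasn lay at 0.80 [0.59 to 1.08] and Srebf2 at 1.05 [0.81 to 1.36].

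Splitting by Idi1, Fdps or Fdft1 gave 10 of 17 as well, and splitting by Sqle, Acat2 or Cyp51 gave 9. In these 6 splits, from 5.90% (Cyp51) to 11.1% (Acat2) of all other genes had an interval above 1. Splitting by Pmvk gave 2, by Ebp 1 and by Tm7sf2 none, the last on 85 cells, against 4.99%, 5.41% and 2.64% of all other genes. Splitting by Fasn gave 1 of 18 above 1 and 2 below, with a median ratio of 0.911, and splitting by Acly none of 18. Over all other genes, 2.96% lay above 1 and 2.99% below with Fasn, and 3.02% above with Acly. Splitting by Insig1 gave 6 of 18, by Srebf2 2 and by Srebf1 none, against 3.61%, 3.49% and 3.12% of all other genes.

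**Figure D5:**
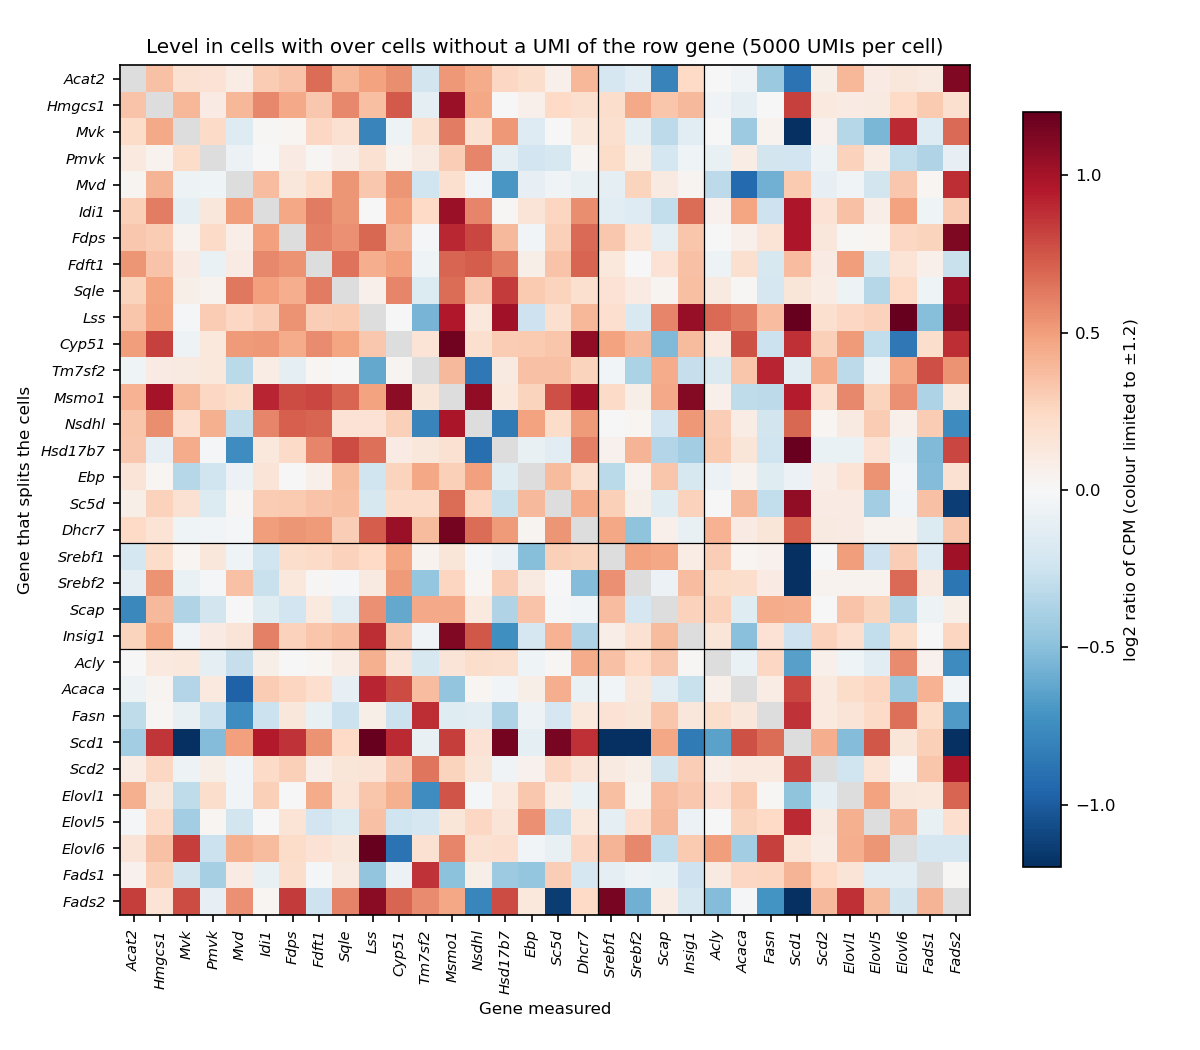
Log2 ratio of the level of each gene (column) in cells with over cells without a UMI of the row gene, at 5000 UMIs per cell; lines divide sterol enzymes, regulators and fatty acid enzymes. Red squares gather in the sterol block, above all in the rows and columns of Msmo1, Cyp51, Dhcr7, Idi1 and Hmgcs1, and the rows and columns of Scd1, Fads2 and Lss vary widely on few UMIs.

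Depth moved with some levels. In cells above 14000 UMIs, the levels of Hsd17b7, Ebp and Msmo1 were 1.34 [1.11 to 1.61], 1.31 [1.16 to 1.496] and 1.29 [1.18 to 1.41] times those in cells of at most 14000 UMIs. For Pmvk, Mvd, Srebf2 and Fasn the ratios were 0.992, 0.996, 1.004 and 0.982. Of the 32 genes, 11 overlap another listed gene in GENCODE M21, 2 of them on the same strand (Fdps with Gm43738 and Tm7sf2 with Vps51), and their UMIs may be divided.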

How the data were processed

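Sorted lung epithelial cells were profiled with the 10x Chromium 3′ kit, version 2, per the labels' protocols. The authors deposited raw UMI counts per gene and barcode for the control library. Per the file headers, the matrix was written by software of version 3.0.1. Cell Ranger, Seurat and mm10 are named in the submitters' processing notes, with no role or version. The annotation used for counting is not given in the sources used here.

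Cells with at least 1000 genes and at most 10% mitochondrial UMIs were kept. No doublet caller was run and no doublet was removed; 249 of 3457 cells (7.20%) held at least 4 Xist UMIs and a Y-linked UMI, and results were recomputed without them. UMIs were summed per class and scaled to CPM, with exact Poisson intervals, exact conditional intervals for ratios and exact Clopper-Pearson intervals for shares, all at 95%. PCR and capture error are not covered. Thinning drew 5000 UMIs per cell without replacement (seed 0). Quartiles were the upper 25% and lower 25% of the score, ties included, so groups differ in size. All genes with 50 UMIs over both groups gave the background. Positions come from GENCODE M21 by identifier and promoters from RefSeq, GRCm38.p6. Scripts were tested on simulated data. Python 3.11.15, numpy 2.4.6, scipy 1.17.1, pandas 2.3.3 and matplotlib 3.10.9 were used.

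All 32 genes were described. Of other lists, genes past 1.5-fold with an interval without 1 were named, except some that are not reported here, and of all other genes the 10 with the highest ratio in the score among those with 100 or more thinned UMIs. The members and the lists were chosen with earlier results of these data known. Alternatives varied the class minimum, cell filter, depth, denominator, weighting, cycling cells, gene minimum, fold and seed. Some were added after seeing the data: removal of cells with other-lineage markers, and for the score the limits on depth, on ribosomal genes and on class.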

Additional observations from a re-analysis of the deposited data

How the results depend on the processing

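With Sftpa1-only against Ager-only cells, 2 of the 32 genes were past 1.5-fold; the count was 5 in cells of at most 14000 UMIs, 4 after thinning, 1 with classes called on thinned UMIs, 1 without mitochondrial and ribosomal genes in the denominator, 1 with equal weight per cell, 8 without cells holding Mki67 or Top2a, 11 at a smaller fold and 0 at a fold of 2. Within Sox9-positive cells that lacked Sox2 and Ager, split by Sftpa1, 1 gene was past 1.5-fold; the count was 4 with at least 2 UMIs for a positive cell, 2 at most 14000 UMIs, 3 after thinning, 3 with classes on thinned UMIs, 3 without Mki67 or Top2a, 2 at a minimum of 10 UMIs, 3 at a smaller fold and 0 at a fold of 2. For Sox9-only against Sox2-only cells the count of 6 became 11 at the smaller fold and 1 at a fold of 2, and was 4 to 6 elsewhere. The 10 sterol enzymes of the score comparison ranged from 7 to 13. Apart from the shares given above for some score settings, the share of all genes past the same fold is not set beside these counts. A changed count is therefore not read as a change in these genes alone. With classes on thinned UMIs, Fads2 and Tm7sf2 turned to 1.17 (Sftpa1-only over Ager-only), Lss to 0.902 (Sox9-only over Sox2-only) and Acadvl to 0.859 (that split by Sftpa1). Without Mki67 or Top2a cells Mylip turned to 1.68 (Sox9-only over Sox2-only). In the score comparison Cpt2 turned to 0.860 at 3000 UMIs without mitochondrial and ribosomal genes, and within Sox2-only cells Abca3 turned to 1.66, Acat1 to 0.877 and Cpt2 to 0.555. The cause was not tested. Of 1747 gene ratios under alternatives, 1557 moved by less than their interval, 181 by more and 9 that had been past 1.5-fold changed direction. Genes near 50 UMIs, such as Scd1, Lss, Tm7sf2 and Fads2, are limited by depth. No paired analysis was possible because only 1 library gave expression values.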
